A study of Homo sapiens with 12 samples.

Results

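The genes described here copy the genome and feed its copying with nucleotides. They are 51 listed symbols of the 38716 in the deposited tables, sorted into 8 classes by role. Origin licensing holds 11 genes, helicase activation 6, fork protection 4, polymerases and primase 9, the sliding clamp with its loader and the single-strand binding complex RPA 9, strand maturation with topoisomerase 4, nucleotide supply 5 and chromatin assembly behind the fork 3. All 51 symbols were found in the tables. Genes were listed by role, with earlier results of these data known.

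Levels were measured in 2 states of IMR90, a diploid fibroblast line from human lung. Proliferating cells (Pro) were compared with cells passaged until they stopped dividing (Sen), a state called replicative senescence, with no genetic change or drug named in the sample labels of either state. Each state gave 3 lysates, and each lysate gave 1 RNA-seq library of poly(A)-enriched RNA and 1 Ribo-seq library, which sequences the stretches of mRNA shielded by a ribosome, so that 12 libraries fell into 4 groups of 3. The line was grown as a pair of isolates, and the labels do not say which isolate gave which lysate, so an effect of isolate cannot be told apart from that of state. The tables of the proliferating RNA-seq libraries also carry a tag that looks like DMSO, a common solvent. No label names such a treatment, and its part in the results was not tested. By the methods, the lysates of a state came from cultures grown as independent replicates, so p-values measure the spread between such cultures.

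A chromosome is copied once per cycle because loading and firing of the replicative helicase are kept apart in time. In G1, the origin recognition complex with CDC6 and CDT1 loads rings of MCM2 to MCM7 on DNA, a step called licensing. In S phase, CDC45 and the GINS complex join each ring to form the active helicase, and primase, DNA polymerases, the PCNA clamp and RPA assemble at the fork, while ribonucleotide reductase and thymidylate synthase supply deoxynucleotides. Most of these genes are transcribed around the entry to S phase under E2F transcription factors. Cells that have left the cycle copy no genome, and the present comparison asks how evenly the parts of this machinery were lost in senescent fibroblasts, in mRNA and in ribosome-protected fragments (RPF).

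The mRNA level of a gene was the sum of its reads in the 5′ UTR, coding sequence (CDS) and 3′ UTR of an RNA-seq library. Its RPF level was the CDS reads of a Ribo-seq library. Levels are in CPM, the reads of a gene relative to library size after TMM scaling, and a fold change is the log2 ratio of senescent to proliferating cells with its standard error (SE). Calls were made with the quasi-likelihood test of edgeR, at p-values under 0.15 after Benjamini-Hochberg adjustment over all genes tested. RNA-seq libraries held 7902427 to 14144455 reads in these regions. The Ribo-seq libraries held 54421 (Pro 1), 685061 (Pro 2), 1718521 (Pro 3), 1672807 (Sen 1), 54708 (Sen 2) and 583798 (Sen 3) CDS reads. Pro 1 and Sen 2 are called shallow below, and there 3 reads amounted to 52.1 and 52.7 CPM. The Ribo-seq libraries also differed in where their reads fell. Of the reads in the 5′ UTR, CDS and 3′ UTR, the CDS held 77.5, 94.4 and 95.8% in Pro 1, 2 and 3. In Sen 1, 2 and 3 it held 91.6, 40.6 and 81.3%. The 5′ UTR held 44.7% in Sen 2 and 13.8% in Sen 3. The part of these differences in the RPF results was not tested. The 10 fibroblast markers checked were each at 1 CPM or more, with summed levels of 31600 to 35500 CPM in Pro and 30000 to 34700 CPM in Sen. Of 6 epithelial markers none reached 1 CPM. Of 6 endothelial and 6 leukocyte markers, 1 each did, TEK and CD68, and their sums were 54.6 to 62.4 CPM against 93.9 to 106 CPM and 19.4 to 21.5 CPM against 32.6 to 35.5 CPM in Pro and Sen. KRT5 and CDH5 were at or near 0. MKI67, a proliferation marker, fell by 2.30 on the log2 scale in mRNA.

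Replication genes fell together in senescent cells. In proliferating cells the 51 genes took 0.219 to 0.234% of the mRNA reads, and in senescent cells 0.0992 to 0.105%. Of RPF reads they took 0.340 to 0.369% in Pro and 0.133 to 0.157% in Sen. The ranges of the states lay apart in both library types. All 51 genes were tested in mRNA, and 48 were called lower, 1 higher (RPA2) and 2 not called (TIPIN and RFC5), where 37.0% of 12787 tested genes were called lower and 73.6% in either direction. For 34 of the 51 the call came with a fold change under -1, against 7.83% of all tested genes. The median fold change was -1.33 for the 51 genes and -0.01 for all tested genes. For 48 genes the highest senescent library was below the lowest proliferating one, and this held for 34.2% of all tested genes. In bulk libraries, fewer cells in S phase and less RNA per cell cannot be told apart.

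In RPF, 38 of the 51 genes passed the filter on low counts. A gene that passes through its proliferating libraries alone has to differ, so counts over these 38 describe only the genes that passed. Of them 32 were called lower, where 26.9% of 7521 tested genes were (54.4% in either direction), and 22 were called with a fold change under -1, against 9.59% of all. The senescent libraries lay under all proliferating ones for 21 of the 38, against 15.7% of all. The 6 that were not called were POLD2, RPA1, RPA2, FEN1, LIG1 and CHAF1A. Those below the filter were ORC1, MCM10, GINS1, GINS2, GINS3, TIPIN, CLSPN, PRIM1, POLD3, POLE2, RFC5, DNA2 and ASF1B, and their libraries held few footprints. With any gene of at least 1 read admitted, all 51 could be tested and 42 were called lower, against 17.3% of the 13667 genes then tested. At the other extreme, only TOP2A had 10 or more footprints in every library. DESeq2 called 15 of the 38 lower, against 7.39% of all.

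Several RPF calls rested on 1 of the deep libraries. Without Sen 1, 12 of the 32 were lost, namely ORC6, CDC6, MCM3, CDC45, GINS4, POLA2, POLD1, RFC1, RFC2, RFC3, RPA3 and CHAF1B. Among these the fold change without Sen 1 was -0.32 for MCM3, -0.38 for RFC2, -0.63 for RPA3, -0.43 for CHAF1B and -0.30 for GINS4. Without Pro 3, 7 were lost, namely ORC6, CDT1, GINS4, POLA2, RFC2, RPA3 and CHAF1B. GINS4 also lost its call without Sen 2 or Sen 3, and POLA2 without Pro 2 or Sen 3. RPA1 was called lower without Pro 1 (-0.29). RPA2 was called higher in RPF without Pro 3 (0.88) or Sen 1 (0.82). The calls of the MCM subunits other than MCM3, of GMNN, TOP2A, POLA1 and all 5 nucleotide supply genes were kept whichever single library was left out.

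**Figure D1:**
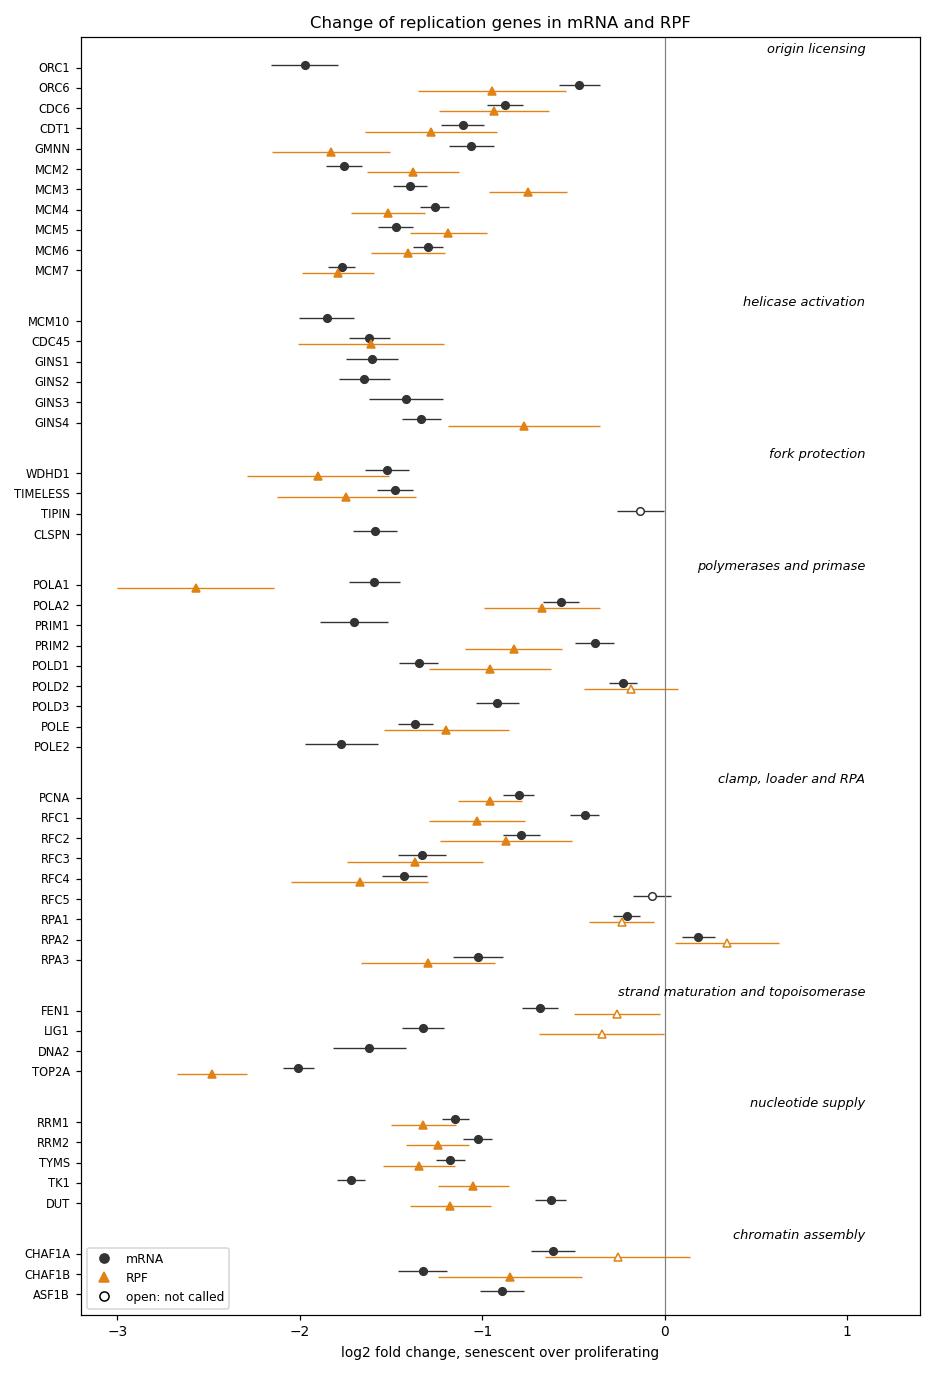
Fold change of each of the 51 genes between senescent and proliferating cells (x axis, log2), by class from top to bottom. Circles are mRNA and triangles RPF, bars are 1 SE, open symbols were not called and genes below the RPF filter have no triangle. RPA2 is the one gene to the right of 0 in both layers, and TOP2A in mRNA (-2.01) and POLA1 in RPF (-2.57) lie farthest to the left.

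The classes did not lose the same share of their transcripts. Summed over its genes, helicase activation kept 34.0% of its proliferating mRNA level, strand maturation with topoisomerase 35.0%, origin licensing 38.7%, fork protection 43.8% and nucleotide supply 45.1%. Chromatin assembly kept 54.6%, polymerases and primase 64.2%, and clamp, loader and RPA 71.4%. The median fold changes followed a similar but not identical order, from -1.61 for helicase activation, -1.50 for fork protection, -1.47 for strand maturation, -1.35 for polymerases and primase, -1.30 for origin licensing and -1.15 for nucleotide supply to -0.89 for chromatin assembly and -0.79 for clamp, loader and RPA. A sum follows its most abundant member, and in the polymerase class POLD2 alone gave 101 to 116 CPM of 252 to 267 CPM in proliferating cells. For RPF the shares kept ran from 35.5% for strand maturation through 37.4% for fork protection, 41.2% for nucleotide supply, 42.1% for origin licensing, 45.1% for helicase activation, 49.3% for polymerases and primase and 49.8% for chromatin assembly to 63.4% for clamp, loader and RPA. Each RPF share weighs the shallow libraries like the deeper ones. Summed chromatin assembly RPF was 52.1, 53.4 and 46.5 CPM in Pro and 36.8, 0 and 38.9 CPM in Sen, the 0 being from shallow Sen 2. Its place in the order of shares thus rests on that library. For helicase activation, Sen 2 was instead the highest senescent library, with 31.5, 70.3 and 44.7 CPM in Sen. The RPF medians, over only the genes that passed the filter, came in another order. They ran from -1.82 for fork protection (2 genes), -1.33 for origin licensing (10), -1.25 for nucleotide supply (5), -1.19 for helicase activation (2) and -0.99 for clamp, loader and RPA (8) to -0.89 for polymerases and primase (6), -0.55 for chromatin assembly (2) and -0.35 for strand maturation (3). The last class thus had the lowest summed share and the highest median in RPF, its sum being mostly TOP2A. The differences between classes were not tested, since the classes were drawn up with results of these data known.

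**Figure D2:**
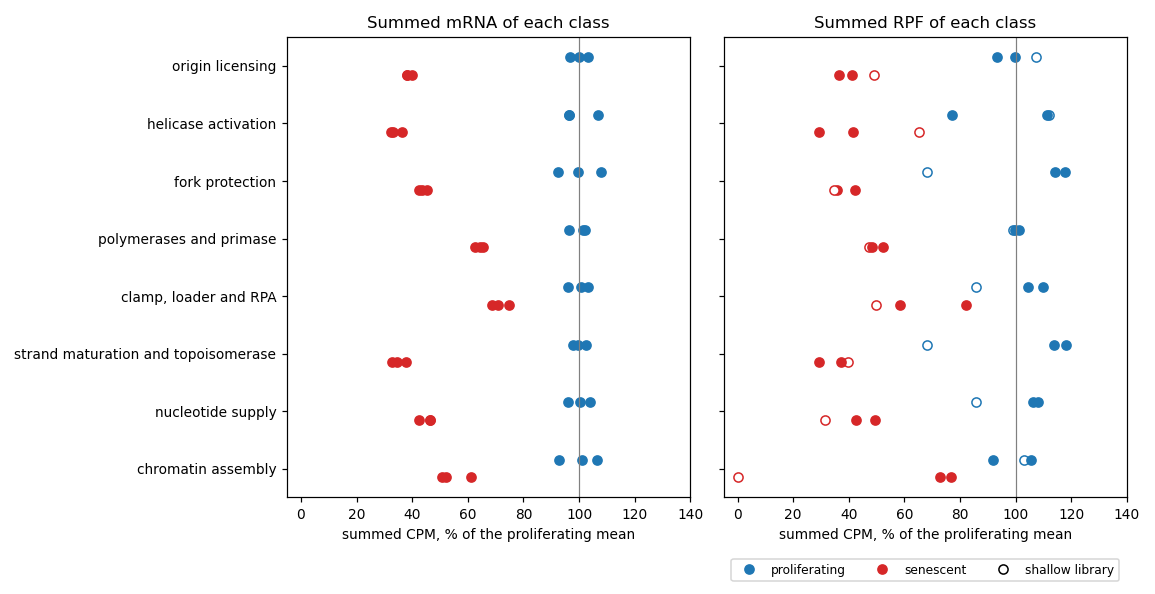
Summed CPM of each class in each library (x axis), as a percentage of the mean of the 3 proliferating libraries, for mRNA (left) and RPF (right). Blue points are proliferating and red points senescent libraries, and open points are the shallow Ribo-seq libraries. In mRNA the senescent points of every class lie left of the proliferating ones, closest to them for clamp, loader and RPA, where 71.4% was kept.

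Promoter sequence was examined as a feature that the list had not used. RefSeq promoter windows of GRCh38.p14, running from 250 bases before to 50 bases after a transcription start, were found for 44 of the 51 genes. Letters read by E2F factors were searched on both strands as TTTGGCGC, TTTCCCGC, TTTGCCGC and TTTCGCGC. They stood in a window of 21 of the 44 genes (47.7%), and in 675 of 10110 tested genes with a window (6.68%). The CCAAT box, searched as CCAAT, stood in 28 of the 44 (63.6%) and in 43.1% of the tested genes. The cell cycle homology region, searched as TTTGAA, stood in 4 of the 44 (9.09%) and in 13.8%. None of these words contains another. The sites below are shown because they belong to a licensing subunit, a licensing inhibitor, the clamp or a priming polymerase. The others belong to the ligase called lower in mRNA but not in RPF, and to the fork gene whose mRNA was not called. Capitals mark a match to the E2F letters or their reverse complement. In MCM6 and TIPIN another match, GCGCGAAA and GCGCCAAA, overlaps the marked one and ends in the lower-case letters. The sequences read 5′ to 3′ in the direction of the gene, all of them before the transcription start.
MCM6: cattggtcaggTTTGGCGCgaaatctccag
MCM3: cggatggtacgTTTCCCGCcaccgcggggc
GMNN: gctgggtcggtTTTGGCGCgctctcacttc
PCNA: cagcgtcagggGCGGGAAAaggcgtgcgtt
POLA1: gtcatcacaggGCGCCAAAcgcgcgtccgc
LIG1: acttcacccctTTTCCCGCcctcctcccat
TIPIN: ccccgcacggaTTTGGCGCcaaacgctgcg

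In GRCh38.p14 the MCM6 stretch is chr2:135876515-135876544 on the minus strand, its match beginning 90 bases before the start. The MCM3 stretch is chr6:52284898-52284927 (minus strand, 174 bases before), the GMNN stretch chr6:24775322-24775351 (plus strand, 80 bases before) and the PCNA stretch chr20:5126663-5126692 (minus strand, 59 bases before). POLA1 has its match at chrX:24693770-24693799 (plus strand, 137 bases before), LIG1 at chr19:48170440-48170469 (minus strand, 114 bases before) and TIPIN at chr15:66356733-66356762 (minus strand, 66 bases before). The 21 genes with such letters had a median mRNA fold change of -1.33 and the 23 without them -1.15. The fold changes ran from -1.77 (POLE2) to -0.13 (TIPIN) with the letters and from -2.01 (TOP2A) to -0.07 (RFC5) without them, so the ranges overlapped, and the difference between them was not tested. These matches are letters in a window and not measured binding.

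Origin licensing fell in both layers. All 11 genes were called lower in mRNA, with fold changes from -1.97 for ORC1 to -0.47 for ORC6, and all 10 that were tested in RPF were called lower. ORC1 is the origin recognition subunit whose supply varies through the cycle, and ORC6 is the smallest subunit of that complex. ORC1 mRNA stood at 11.2, 10.7 and 7.54 CPM in Pro 1, 2 and 3 and at 2.55, 2.35 and 2.56 CPM in Sen 1, 2 and 3 (SE 0.19, adjusted p = 5e-09). ORC6 mRNA stood at 19.9, 21.8 and 20.9 CPM in Pro and 13.0, 17.3 and 14.6 CPM in Sen (SE 0.11, adjusted p = 0.000968). Neither gene had overlapping groups, yet 25.3% of ORC1 mRNA was left and 71.8% of ORC6 mRNA. ORC6 RPF, with a fold change of -0.95 (SE 0.40, adjusted p = 0.0512), rested on Sen 1, and without that library the fold change was 0.00. ORC1 RPF was below the filter, at 0, 16.3 and 16.1 CPM in Pro and 3.35, 0 and 1.94 CPM in Sen.

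CDC6 and CDT1, the factors that bring the MCM ring to the origin, fell by 0.87 (SE 0.10) and 1.11 (SE 0.12) on the log2 scale in mRNA. GMNN, which encodes geminin, the inhibitor that binds CDT1 and blocks renewed licensing, fell by 1.06 (SE 0.12) in mRNA and by 1.83 (SE 0.32) in RPF. Geminin RPF was 34.7, 50.5 and 55.4 CPM in Pro and 12.1, 17.6 and 21.4 CPM in Sen, which left the states apart. That separation rests on 2 reads in Pro 1 and 1 read in Sen 2. The mRNA fold changes of the licensing factor CDT1 and its inhibitor were close, while CDT1 RPF fell by 1.28 (SE 0.36). The ratio of CDT1 to GMNN in coding reads per kb was 0.376, 0.419 and 0.561 in Pro and 0.403, 0.310 and 0.605 in Sen, with overlapping groups (exact permutation test, two-sided, n = 3, p = 0.9). With 3 libraries per state this test cannot show that the ratio was unchanged. In the deeper Ribo-seq libraries the ratio was 0.169 and 0.247 in Pro and 0.425 and 0.244 in Sen. This pair was chosen after the values were seen.

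The 6 subunits of the MCM ring fell by similar amounts in mRNA, by 1.26 (MCM4, SE 0.08) to 1.77 (MCM7, SE 0.07) on the log2 scale, with adjusted p-values from 8.07e-15 to 1.72e-11. MCM2 mRNA was 49.1, 44.7 and 47.4 CPM in Pro 1, 2 and 3 and 15.0, 12.2 and 14.8 CPM in Sen 1, 2 and 3. MCM7 mRNA was 130, 122 and 131 CPM in Pro and 37.2, 37.2 and 37.8 CPM in Sen. These subunits kept 29.7% and 29.3% of their level, the lowest shares of the ring, and no library of a state came near the other state.

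MCM3 mRNA was 78.4, 62.1 and 66.4 CPM in Pro and 25.9, 27.4 and 25.0 CPM in Sen. MCM4 mRNA was 70.1, 75.1 and 70.2 CPM in Pro and 30.6, 27.9 and 31.6 CPM in Sen. MCM4 kept 41.9% of its mRNA, the highest share of the ring. MCM5 mRNA was 54.4, 51.5 and 55.6 CPM in Pro and 18.9, 17.1 and 22.3 CPM in Sen. MCM6 mRNA was 56.0, 54.9 and 58.9 CPM in Pro and 22.3, 22.8 and 23.9 CPM in Sen. Across the ring, then, each subunit showed 2 well-separated groups of libraries.

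Per length, the subunits did not stand at equal levels, although the assembled ring holds one copy of each. In coding reads per kb of coding length, proliferating mRNA ran from 14.0 CPM per kb for MCM2 to 54.1 CPM per kb for MCM7, a 3.87-fold range, and senescent mRNA from 4.08 to 15.7 CPM per kb for the same genes, a 3.85-fold range. The spread among subunits in mRNA was thus carried over into senescence. In the deeper Ribo-seq libraries, RPF per kb spanned a 3.24-fold range in proliferating and a 2.71-fold range in senescent cells. The MCM7 gene overlaps exons of AP4M1 on the opposite strand, and whether reads were counted by strand is not given in the sources used here.

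In RPF the 6 subunits were also called lower, by 0.75 (MCM3, SE 0.21) to 1.79 (MCM7, SE 0.20). MCM7 RPF was 243, 208 and 178 CPM in Pro and 54.9, 105 and 50.5 CPM in Sen. MCM2 RPF was 121, 68.3 and 81.1 CPM in Pro and 26.8, 52.7 and 35.0 CPM in Sen. MCM4 RPF was 139, 131 and 165 CPM in Pro and 54.3, 70.3 and 46.7 CPM in Sen. In each of these the shallow Sen 2 library was the highest of the senescent group and still below all proliferating ones. Sen 2 held only 3 reads of MCM2, 4 of MCM4 and 6 of MCM7, so its place between the groups is uncertain.

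MCM5 RPF was 139, 96.5 and 109 CPM in Pro and 47.6, 35.2 and 44.7 CPM in Sen. MCM6 RPF was 69.4, 140 and 140 CPM in Pro and 54.3, 52.7 and 44.7 CPM in Sen, the 69.4 CPM in Pro 1 resting on 4 reads. MCM3 RPF was 243, 96.5 and 116 CPM in Pro and 56.3, 70.3 and 93.3 CPM in Sen. MCM3 came closest to overlap, with 93.3 CPM in Sen 3 against 96.5 CPM in Pro 2, and is taken up again with the translation results.

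**Figure D3:**
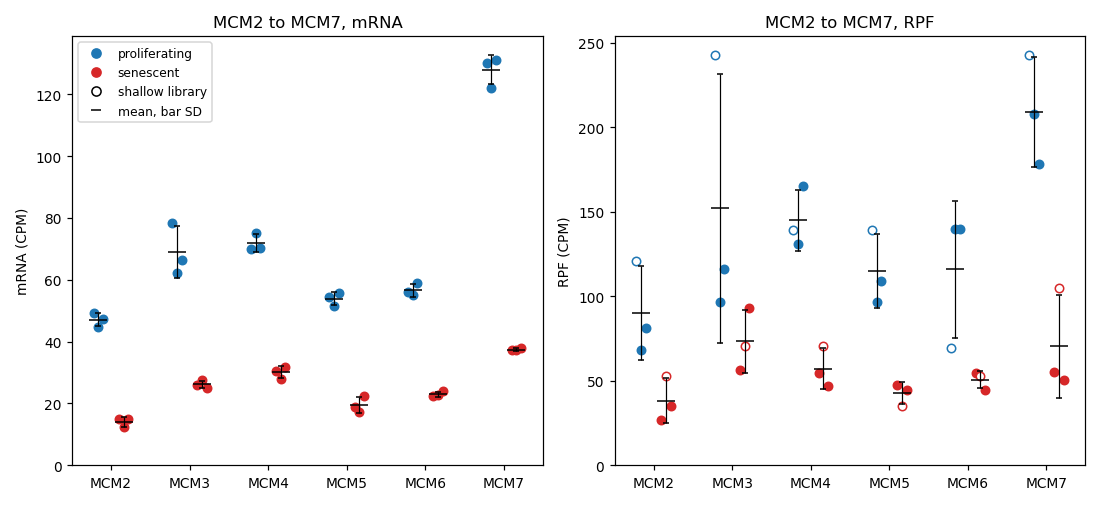
Levels of the 6 MCM ring subunits in each library (y axes, CPM from 0) in mRNA (left) and RPF (right). Blue points are proliferating and red points senescent libraries, open points the shallow Ribo-seq libraries, and the bar with whiskers the mean ± SD of 3. The groups lie apart for every subunit in both layers, most narrowly for MCM3 in RPF (93.3 against 96.5 CPM). Open points rest on few reads, from 2 for MCM5 in Sen 2 to 14 for MCM3 and MCM7 in Pro 1.

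Helicase activation showed the lowest class median in mRNA, and all 6 genes were called lower there. With RNA-seq thinned to the reads of the Ribo-seq partner, its median was -1.43 and that of fork protection was lower, at -1.59. MCM10, which acts at the start of unwinding, stood at 17.8, 13.4 and 17.2 CPM in Pro and 4.79, 3.88 and 4.75 CPM in Sen (fold change -1.85, SE 0.15, adjusted p = 4.35e-10). GINS4 stood at 33.4, 32.3 and 32.5 CPM in Pro and 11.3, 12.4 and 15.2 CPM in Sen (fold change -1.33, SE 0.11, adjusted p = 3.49e-10). These are the extremes of the class, and in both the states lay far apart. CDC45, which couples the MCM ring to GINS, fell by 1.62 (SE 0.11), and GINS1, GINS2 and GINS3 by 1.61, 1.65 and 1.42. In RPF, CDC45 (-1.61, SE 0.40) and GINS4 (-0.77, SE 0.42, adjusted p = 0.13) were called lower with overlapping groups. CDC45 RPF was 0, 29.7 and 29.8 CPM in Pro and 7.37, 35.2 and 11.7 CPM in Sen, where the values of 0 and 35.2 CPM came from the shallow libraries. MCM10 RPF, below the filter, was 17.4, 13.4 and 28.0 CPM in Pro and 3.35, 0 and 1.94 CPM in Sen.

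Among the fork protection genes, which keep helicase and polymerases together and pass on the replication checkpoint signal, 3 of 4 were called lower. CLSPN, the adaptor claspin, had an mRNA level of 25.9, 21.9 and 20.9 CPM in Pro and 7.56, 7.55 and 7.59 CPM in Sen (fold change -1.59, SE 0.12, adjusted p = 1.41e-10). WDHD1, the AND-1 protein that links helicase and polymerase alpha, fell by 1.52 (SE 0.12), and TIMELESS, part of the fork protection complex, by 1.48 (SE 0.10). WDHD1 RPF had a fold change of -1.90 (SE 0.39) and TIMELESS RPF of -1.75 (SE 0.38). The groups lay apart for TIMELESS RPF, with 1 read in Pro 1 and 0 in Sen 2. They overlapped for WDHD1 RPF, at 17.4, 23.7 and 42.3 CPM in Pro and 7.37, 35.2 and 11.7 CPM in Sen. CLSPN RPF was below the filter, at 0, 34.1 and 32.8 CPM in Pro and 6.03, 0 and 7.78 CPM in Sen.

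TIPIN, the partner of TIMELESS in one complex, was not called in mRNA. It stood at 15.7, 12.8 and 18.9 CPM in Pro and 14.5, 13.7 and 15.1 CPM in Sen (fold change -0.13, SE 0.13, adjusted p = 0.372), with the senescent values inside the range of the proliferating ones. It was called lower without Pro 2 (-0.28, adjusted p = 0.0739) and without TMM scaling (-0.24, adjusted p = 0.11). Counted by coding reads alone, TIPIN held 73, 78 and 98 reads in Pro and 49, 89 and 47 in Sen and was called lower (fold change -0.58, SE 0.18, adjusted p = 0.0129). An exon of the ribosomal protein pseudogene RPL9P25 overlaps TIPIN on the same strand, and its part in the values was not tested. TIPIN RPF was 34.7, 19.3 and 14.3 CPM in Pro and 12.1, 0 and 15.6 CPM in Sen, below the filter. Thus TIMELESS fell in both layers, and the fall of TIPIN depended on which reads were counted.

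The 9 genes of polymerases and primase were all called lower in mRNA, with fold changes from -1.77 for POLE2 to -0.23 for POLD2. POLE2, the second subunit of the leading-strand polymerase epsilon, stood at 5.61, 6.33 and 6.70 CPM in Pro and 1.38, 1.69 and 2.38 CPM in Sen (fold change -1.77, SE 0.20, adjusted p = 9.57e-08). POLD2, the second subunit of the lagging-strand polymerase delta, stood at 116, 109 and 101 CPM in Pro and 99.3, 92.0 and 87.4 CPM in Sen (fold change -0.23, SE 0.08, adjusted p = 0.0119). POLD2 kept 85.3% of its mRNA, and its lowest proliferating library lay close above its highest senescent one. POLD2 RPF was 86.8, 43.0 and 49.5 CPM in Pro and 42.2, 52.7 and 42.8 CPM in Sen, with overlapping groups (fold change -0.19, SE 0.26, adjusted p = 0.585). POLE2 RPF was below the filter, at 0, 17.8 and 14.3 CPM in Pro and 0.670, 0 and 1.94 CPM in Sen.

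Fold changes varied among the subunits of a polymerase, and the differences between subunits were not tested. For polymerase delta, the catalytic POLD1 fell by 1.35 (SE 0.11) and POLD3 by 0.92 (SE 0.12), against 0.23 for POLD2. For polymerase alpha with primase, which lays down the primers, the catalytic POLA1 fell by 1.59 (SE 0.14) and the catalytic primase PRIM1 fell by 1.70 (SE 0.19), while their partners POLA2 and PRIM2 fell by 0.57 (SE 0.10) and 0.38 (SE 0.11). The range of levels among the 4 subunits of this complex was wider in senescent cells. Per kb of coding length it ran from 2.57 CPM for POLA1 to 12.9 CPM for POLA2 in proliferating mRNA, a 5.02-fold range, and from 0.850 to 8.73 CPM in senescent mRNA, a 10.3-fold range. For POLD1, POLD2 and POLD3 it went from 11.9-fold to 20.8-fold. In the deeper Ribo-seq libraries the ranges went from 5.96-fold to 19-fold and from 3-fold to 5.34-fold. The highest of the 4 subunits there was PRIM2 and not POLA2. The lowest senescent levels rest on few footprints, 12 in Sen 1 and 1 in Sen 3 for POLA1, and 12 and 4 for POLD3. For polymerase epsilon the accessory POLE2 had the lower fold change, -1.77 (SE 0.20) against -1.37 (SE 0.10) for the catalytic POLE.

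POLA1 had the lowest RPF fold change of all tested members, -2.57 (SE 0.43, adjusted p = 1e-06). Its RPF level was 121, 23.7 and 40.5 CPM in Pro and 8.04, 0 and 1.94 CPM in Sen. The highest value, in Pro 1, is that of a shallow library, and the states lay apart without it too. POLE RPF fell by 1.20 (SE 0.34), and its groups lay apart, with 2 reads in Pro 1 and 0 in Sen 2. Fold changes of PRIM2 RPF (-0.83, SE 0.27), POLA2 RPF (-0.67, SE 0.32, adjusted p = 0.08) and POLD1 RPF (-0.96, SE 0.33) came with overlapping groups. POLA2 RPF was 0, 41.6 and 37.0 CPM in Pro and 23.4, 35.2 and 21.4 CPM in Sen, the 0 and the 35.2 CPM being from shallow libraries. PRIM2 held fractional coding reads in 6 libraries, which can arise where reads are shared with other annotated features. Its values are the less certain for it.

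In mRNA, clamp, loader and RPA had the median nearest to 0 and kept the largest summed share, and held all but 1 of the genes not called lower. In RPF the class kept the largest share as a sum with the shallow libraries included, but not by its median. The lower summed share of chromatin assembly there rested on a value of 0 CPM in shallow Sen 2. PCNA, the ring that tethers polymerases, fell by 0.80 (SE 0.08) in mRNA and by 0.96 (SE 0.18) in RPF. PCNA has 3 named pseudogenes and fractional coding reads in 4 libraries. Of the loader RFC, which opens that ring, RFC4 fell most, from 25.4, 21.0 and 19.6 CPM in Pro to 8.19, 8.28 and 7.86 CPM in Sen (fold change -1.43, SE 0.12, adjusted p = 1.15e-09). RFC4 RPF was 52.1, 40.1 and 31.0 CPM in Pro and 8.71, 0 and 17.5 CPM in Sen (fold change -1.67, SE 0.38), and the states did not overlap in either layer. Exons of EIF4A2 overlap RFC4 on the opposite strand. RFC3 fell by 1.33 and RFC2 by 0.79 in mRNA. RFC1, the large subunit, fell by 0.44 (SE 0.08) in mRNA and had a fold change of -1.03 (SE 0.27) in RPF. Its RPF groups overlapped, at 0, 68.3 and 71.5 CPM in Pro and 29.5, 70.3 and 36.9 CPM in Sen.

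RFC5, a small subunit of the same loader, gave opposite answers by region. Its summed mRNA stood at 28.3, 27.2 and 28.4 CPM in Pro and 21.7, 28.2 and 29.4 CPM in Sen and was not called (fold change -0.07, SE 0.10, adjusted p = 0.571). Its coding reads were 85, 109 and 86 in Pro and 45, 57 and 36 in Sen and fell, with a fold change of -1.15 (SE 0.16, adjusted p = 1.8e-05). The groups did not overlap in coding reads but did in the sum. The difference lay in the 3′ UTR, which gave 62.9% ± 4.35 (SD, n = 3) of the summed reads in Pro and 82.8% ± 4.69 in Sen. In GRCh37, RFC5 spans chr12:118451393-118470935 on the plus strand and its exons overlap those of WSB2 on the minus strand. WSB2 mRNA rose by 0.61 (SE 0.07, adjusted p = 8.39e-08), with 1281, 1781 and 1529 reads in Pro and 2212, 3126 and 2466 in Sen. Whether reads of WSB2 entered the RFC5 count was not tested. RFC5 RPF, which covers the coding sequence alone, was 34.7, 26.7 and 13.7 CPM in Pro and 10.0, 0 and 5.83 CPM in Sen, below the filter. Of all 51 genes only RFC5 moved by more than 0.5 on the log2 scale between these countings, and the next was TIPIN, with 0.44.

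RPA, the 3-subunit complex that coats single-stranded DNA, did not fall as a unit. RPA2 mRNA was 33.3, 32.4 and 31.9 CPM in Pro and 33.4, 39.9 and 37.1 CPM in Sen (fold change 0.19, SE 0.09, adjusted p = 0.0695). This is the one call of a higher mRNA among the 51, and the lowest senescent library stood only just above the highest proliferating one. It was lost without Pro 2 (0.18, adjusted p = 0.163), Pro 3 (0.17, adjusted p = 0.153) or Sen 2 (0.12, adjusted p = 0.275). It was also lost without TMM scaling, where the fold change was 0.08 (adjusted p = 0.441) and the median of all genes -0.11, and the sign turned (-0.06) with RNA-seq thinned to the reads of the Ribo-seq partner. RPA2 RPF was 34.7, 23.7 and 41.7 CPM in Pro and 36.2, 35.2 and 66.1 CPM in Sen, which overlap (fold change 0.34, SE 0.28, adjusted p = 0.341). RPA2 has 3 named pseudogenes.

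RPA1, the large DNA-binding subunit, had a fold change of -0.21 (SE 0.07, adjusted p = 0.018) in mRNA and -0.24 (SE 0.18, adjusted p = 0.295) in RPF. RPA3, the smallest subunit, fell by 1.02 (SE 0.14) in mRNA and by 1.30 (SE 0.37) in RPF, where its groups overlapped. Per kb of coding length the 3 subunits stood within a 1.20-fold range in proliferating mRNA, from 24.9 CPM for RPA2 to 30.0 CPM for RPA1. In senescent mRNA they ran from 12.1 CPM for RPA3 to 27.8 CPM for RPA2, a 2.29-fold range. In the deeper Ribo-seq libraries RPA3 was the highest of the 3 per kb in proliferating cells, at 87.7 CPM, and the lowest in senescent cells, at 46.0 CPM. There the range among the subunits went the other way, from 2.17-fold to 1.49-fold.

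Strand maturation joins the lagging-strand pieces, and topoisomerase II alpha untangles the daughter strands. TOP2A, which encodes the latter, had the lowest mRNA fold change of the 51 genes. Its mRNA stood at 129, 142 and 147 CPM in Pro and 31.6, 34.0 and 38.3 CPM in Sen (fold change -2.01, SE 0.08, adjusted p = 8.07e-15). TOP2A RPF stood at 243, 454 and 459 CPM in Pro and 67.0, 176 and 85.5 CPM in Sen (fold change -2.48, SE 0.19, adjusted p = 1.83e-18). The 24.9% of its mRNA that was left is the lowest share among the 51 genes, and the states lay apart in both layers. DNA2, a nuclease and helicase that trims long flaps, fell by 1.62 (SE 0.20) in mRNA.

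FEN1, the flap endonuclease, fell least in this class. Its mRNA was 54.2, 45.3 and 42.8 CPM in Pro and 31.4, 26.4 and 30.8 CPM in Sen (fold change -0.68, SE 0.10, adjusted p = 2.58e-06). FEN1 RPF was 52.1, 63.8 and 66.2 CPM in Pro and 50.9, 0 and 68.0 CPM in Sen (fold change -0.26, SE 0.24, adjusted p = 0.385). The mRNA groups were separate and the RPF groups overlapped, with Sen 3 above all proliferating libraries. LIG1, the ligase that seals the joined pieces, fell by 1.33 (SE 0.12) in mRNA and was not called in RPF, as described with the translation results. Exons of FADS2 overlap FEN1 on the same strand, and FEN1 has 1 named pseudogene.

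All 5 nucleotide supply genes fell in mRNA and in RPF, and it was the one class in which each member was tested and called in both layers with an RPF fold change under -1. TK1, the thymidine kinase of S phase, fell most in mRNA, from 107, 103 and 105 CPM in Pro to 32.6, 31.4 and 31.8 CPM in Sen (fold change -1.72, SE 0.08, adjusted p = 1.65e-14). DUT, the enzyme that removes dUTP, fell least, from 51.3, 50.8 and 53.9 CPM in Pro to 30.0, 35.8 and 34.9 CPM in Sen (fold change -0.63, SE 0.09, adjusted p = 1.26e-06). In RPF the fold changes of this pair were close, and their order was not tested. TK1 RPF fell by 1.05 (SE 0.20) and DUT RPF by 1.18 (SE 0.22). DUT RPF was 121, 97.9 and 93.0 CPM in Pro and 43.5, 17.6 and 42.8 CPM in Sen, with separate groups. DUT has 8 named pseudogenes and fractional coding reads in 8 libraries.

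TYMS, thymidylate synthase, fell by 1.17 (SE 0.08) in mRNA and 1.35 (SE 0.20) in RPF. RRM1 and RRM2, the large and small subunits of ribonucleotide reductase, fell by 1.15 (SE 0.07) and 1.02 (SE 0.08) in mRNA and by 1.32 (SE 0.18) and 1.25 (SE 0.17) in RPF. The ratio of RRM2 to RRM1 in coding reads per kb was 3.05, 2.55 and 2.87 in Pro and 2.60, 2.96 and 2.74 in Sen, which overlap (exact permutation test, two-sided, n = 3, p = 0.8). Here too, 3 libraries per state cannot show that the ratio was unchanged. RRM2 has 3 named pseudogenes and TYMS 2, and neither gene held fractional coding reads in any library. Reads in the UTRs were not checked for fractions. Exons of ENOSF1 and TYMSOS overlap TYMS on the opposite strand.

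Chromatin assembly puts histones on the new strands. CHAF1B and CHAF1A are subunits of the chaperone CAF-1, and ASF1B hands histones to it. CHAF1B mRNA stood at 17.0, 13.9 and 14.1 CPM in Pro and 6.17, 5.64 and 6.03 CPM in Sen (fold change -1.33, SE 0.13, adjusted p = 1.3e-08). CHAF1A mRNA stood at 21.1, 24.5 and 21.0 CPM in Pro and 14.9, 12.1 and 17.2 CPM in Sen (fold change -0.61, SE 0.12, adjusted p = 0.000139). Both had separate groups, and per kb of coding length the pair went from a 1.04-fold to a 2.07-fold difference in mRNA. In RPF of the deeper libraries it went from 2.16-fold, with CHAF1B the higher, to 1.83-fold. In RPF, CHAF1B was 34.7, 20.8 and 20.9 CPM in Pro and 10.0, 0 and 17.5 CPM in Sen (fold change -0.85, SE 0.40, adjusted p = 0.0756). CHAF1A RPF was 17.4, 16.3 and 16.7 CPM in Pro and 16.1, 0 and 9.72 CPM in Sen and was not called (adjusted p = 0.624). ASF1B fell by 0.89 (SE 0.12) in mRNA, and its RPF was below the filter at 0 to 16.3 CPM.

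The 2 layers were then set side by side. Over the 38 genes tested in both, each had the same sign in mRNA and RPF, and 32 were called lower in both. RPF was the more negative for 24 and mRNA for 14. The fold changes correlated across these genes with r = 0.73 and a rank correlation of 0.68, against r = 0.80 across the 7473 genes tested in both layers. Genes share libraries and are not independent replicates, so these are descriptions. Translational efficiency (TE) is RPF relative to mRNA, tested as the interaction of library type with state, and its change was called for 3 of the 38 genes, where 10.0% of 7473 genes were called in either direction. The share of members with a TE call was near that background. All 3 were higher in senescent cells, so that RPF fell less than mRNA, and no member was called lower. The other 35 had fold changes in TE from -0.91 (POLA1, SE 0.53) to 0.66 (GINS4, SE 0.46).

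TK1 RPF was 139, 137 and 151 CPM in Pro and 62.3, 35.2 and 91.4 CPM in Sen. Its log2 ratio of RPF to mRNA in each lysate was 0.46, 0.41 and 0.54 in Pro and 0.94, 0.49 and 1.54 in Sen, with the shallow Sen 2 inside the proliferating range. The TE fold change was 0.69 (SE 0.22, adjusted p = 0.0581). LIG1 RPF was 17.4, 25.2 and 25.0 CPM in Pro and 18.1, 17.6 and 23.3 CPM in Sen (RPF fold change -0.35, SE 0.34, adjusted p = 0.429). LIG1 mRNA was 24.3, 23.7 and 25.6 CPM in Pro and 9.36, 8.65 and 11.4 CPM in Sen. Its ratio was 0.10, 0.13 and -0.02 in Pro and 0.97, 1.60 and 1.08 in Sen, which do not overlap. Of these, the Pro 1 and Sen 2 values rest on 1 footprint each. The LIG1 TE fold change was 1.02 (SE 0.37, adjusted p = 0.102). MCM3 had ratios of 1.68, 0.64 and 0.81 in Pro and 1.13, 1.53 and 1.92 in Sen. Here the shallow Pro 1 lay among the senescent values, and the TE fold change was 0.66 (SE 0.24, adjusted p = 0.0966). Leaving out Pro 2, Pro 3 or Sen 3 removed each of these calls, and leaving out Sen 1 that of LIG1.

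**Figure D4:**
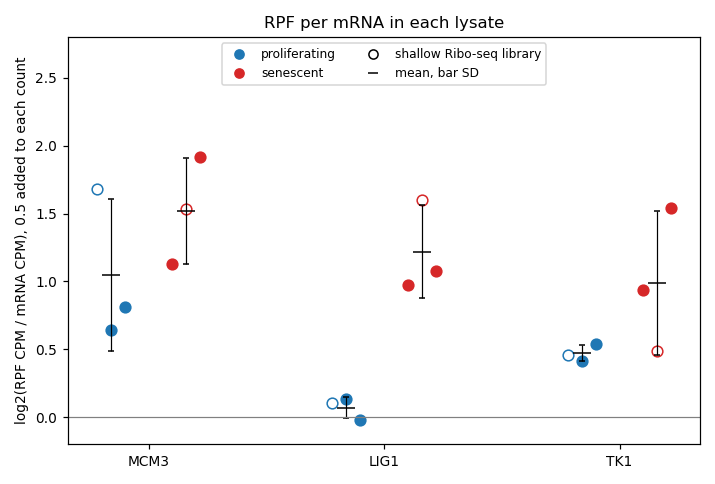
Log2 ratio of RPF to mRNA in each lysate (y axis, 0.5 added to each count before scaling) for the 3 genes with a called change in TE. Blue points are proliferating and red points senescent lysates, open points those with a shallow Ribo-seq library, and the bar with whiskers the mean ± SD of 3. The states lie apart for LIG1 (up to 0.13 against 0.97 or more) and overlap for MCM3 and TK1. The open LIG1 points rest on 1 footprint each.

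The remaining genes of the pathway, 57 in lists drawn up by role, were compared next. Over all tested genes, 37.0% were called lower and 36.6% higher in mRNA, and 26.9% and 27.5% in RPF. Of 10 other licensing and firing genes, 9 were called lower in mRNA and none higher. The exception was ORC3, a core origin recognition subunit, with -0.05 (SE 0.09), and the 6 tested in RPF were called lower, ORC3 among them (-0.56, SE 0.24). Of 17 other fork enzymes 14 were lower in mRNA and 1 higher, and 7 of 13 lower and 1 higher in RPF. The higher gene in both was POLD4, the smallest subunit of polymerase delta, with mRNA at 58.3, 49.4 and 45.6 CPM in Pro and 87.7, 85.6 and 80.5 CPM in Sen (fold change 0.73, SE 0.09) and RPF at 34.7, 2.97 and 17.9 CPM in Pro and 44.9, 0 and 35.0 CPM in Sen (1.53, SE 0.36). Polymerase delta thus held subunits that fell, POLD1 and POLD3, one near its former level, POLD2, and one that rose.

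Other nucleotide synthesis held calls in both directions. Of 20 genes, 12 were called lower and 5 higher in mRNA, and 11 of 19 lower and 5 higher in RPF. The share called higher was below that of all tested genes in both layers. The same 5 genes were higher in both layers, RRM2B, CTPS1, CMPK1, TK2 and DCTD. CTPS1, which makes CTP, rose by 1.45 (SE 0.07) in mRNA and 1.54 (SE 0.17) in RPF. CMPK1, a kinase of CMP and UMP, rose by 0.68 (SE 0.07) in mRNA, and DCTD, a deaminase of dCMP, by 0.40 (SE 0.07). RRM2B, the small reductase subunit made outside S phase, rose by 1.21 (SE 0.09) in mRNA and 0.60 (SE 0.23) in RPF, where its groups overlapped. TK2, the mitochondrial thymidine kinase, rose by 0.88 (SE 0.09) in mRNA and 1.42 (SE 0.38) in RPF. The purine genes GART, PAICS and PPAT, the pyrimidine gene CAD and the folate genes SHMT2 and MTHFD1 were called lower in both layers.

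For 2 enzymes the S-phase form and its counterpart outside S phase thus moved in opposite directions. Per kb of coding length, RRM2 mRNA went from 104 to 46.9 CPM and RRM2B mRNA from 13.4 to 30.5 CPM, as means of 3 libraries. The ratio of RRM2 to RRM2B was 7.66, 8.18 and 7.44 in Pro and 1.45, 1.66 and 1.51 in Sen, 5.04-fold lower. The ratio of TK1 to TK2 was 6.79, 7.23 and 7.54 in Pro and 1.13, 1.25 and 1.34 in Sen, 5.78-fold lower. Neither ratio overlapped between states, and the exact permutation test (two-sided, n = 3) gave p = 0.1 for each, the smallest that 3 against 3 allows. In the deeper Ribo-seq libraries RRM2 over RRM2B was 6.27 and 7.57 in Pro and 1.78 and 2.02 in Sen, and TK1 over TK2 was 11.6 and 19.2 in Pro and 2.63 and 3.13 in Sen. Even so, the S-phase form stayed the more abundant of each pair per kb in senescent mRNA. Both pairs were chosen after the values were seen.

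**Figure D5:**
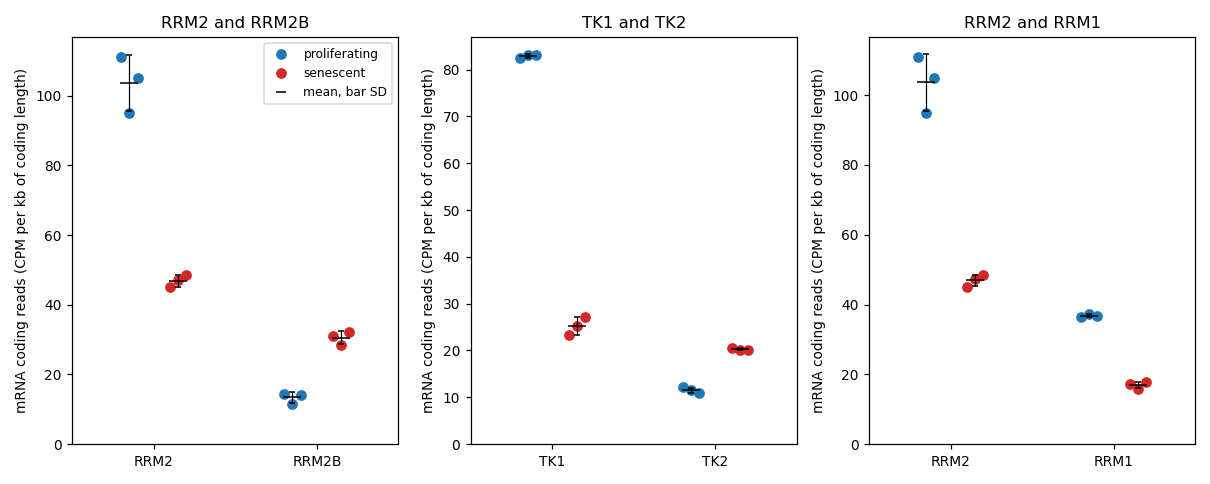
Coding reads in mRNA per kb of coding length (y axes, CPM per kb from 0) for RRM2 with RRM2B, TK1 with TK2, and RRM2 with RRM1. Blue points are proliferating and red points senescent libraries, and the bar with whiskers is the mean ± SD of 3. RRM2 and TK1 fall while RRM2B and TK2 rise, whereas RRM1 falls with RRM2.

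Finally, the E2F and DP factors that read the promoter letters above were followed in mRNA. Of 10 genes, 5 were called lower, 2 higher and 3 not called, against 37.0% lower and 36.6% higher of all tested genes, so the share called lower was near the background and the share called higher below it. E2F8 and E2F2 fell most, by 1.56 (SE 0.24) and 1.13 (SE 0.20), and E2F5 by 0.91 (SE 0.18). E2F7 fell by 0.33 (SE 0.11) and E2F1 by 0.22 (SE 0.10, adjusted p = 0.0593). E2F3 rose by 0.20 (SE 0.09, adjusted p = 0.0479) and TFDP1, a dimer partner, by 0.13 (SE 0.07, adjusted p = 0.0966), while E2F4 (-0.12), E2F6 (-0.23) and TFDP2 (-0.04) were not called. Of these only E2F4, TFDP1 and TFDP2 could be tested in RPF. E2F1 RPF was 0, 11.9 and 4.17 CPM in Pro and 2.68, 0 and 0 CPM in Sen, so a difference in it was not resolved at this depth.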

How the data were processed

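RNA-seq and Ribo-seq of 6 IMR90 lysates gave 12 libraries, grouped by the sample labels. The authors assigned reads to gene symbols and regions, and the deposited values were read as estimated counts without scaling, since 12.1 to 22.7% of nonzero values were not whole. Tests had been planned for plain counts, so values were summed over regions and rounded. The submitters' processing notes list cutadapt 1.18, Bowtie 1.0.1, SAMtools 1.8 and DESeq2 1.22.2. Genome build, annotation and strand rule are not given in the sources used here. Footprints were taken after cycloheximide treatment.

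Of the symbols, 16451 had a CDS read in some library. Genes were tested with edgeR 4.0.16 in R 4.3.3 (filterByExpr, TMM factors within library type, glmQLFit and glmQLFTest, two-sided, threshold 0.15 as in the published false discovery rate). The mRNA and RPF fits used 6 libraries each. The TE fit used all 12, with the lysate as a block, since the protocol took both libraries of a lysate from one culture. Deviations of such pairs from their group means correlated from -0.10 to 0.15 across genes. SE is the fold change divided by the square root of F. The count floor was 3 reads and covers counting error only. The tests were checked on simulated counts. Alternatives were other scaling, filters, DESeq2 1.42.0, a stricter threshold, the replicate block, leaving out libraries, coding reads alone and thinned RNA-seq.

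Values in every library are given for the members with the lowest and highest mRNA change of each class, the MCM ring, members with a TE call and members whose mRNA was not called lower. The members, classes and lists were chosen with earlier results of these data known. Spans and coding lengths come from the GENCODE annotation lifted to GRCh37, which may differ from the annotation behind the tables. Overlapping exons on the opposite strand were found for 20 members, on the same strand for 8, and named pseudogenes for 12.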

Additional observations from a re-analysis of the deposited data

Results flagged for a closer look

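The response to senescence differed between mRNA and RPF for 3 genes, by the test of library type with state. They are 3 of 38 members tested, where 10.0% of all tested genes were called, so the share is no result about the members as a group. TE was higher in senescent cells for MCM3 by 0.66 (SE 0.24), for LIG1 by 1.02 (SE 0.37) and for TK1 by 0.69 (SE 0.22) on the log2 scale. None of the 3 calls was kept without Pro 2, Pro 3 or Sen 3, and that of LIG1 was lost without Sen 1. Groups held 3 libraries, too few for a test of single outlying libraries.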

How the results depend on the processing

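The number of replication genes with a changed mRNA stayed between 48 and 50 of 51 under other scaling, filters, DESeq2, a stricter threshold, the replicate block, coding reads alone and with any library left out (48 to 49), and was 33 of 39 tested with thinned RNA-seq. These are calls in either direction, which 73.6% of all tested genes had in mRNA (62.9 to 74.7% under the same alternatives and 50.3% with thinned RNA-seq). For RPF the 32 calls (54.4% of all tested genes) became 15 with DESeq2 (15.5%), 21 with the replicate block (31.1%), and 1 with at least 10 counts in every library, where TOP2A alone could be tested. They ran from 25 to 37 with 1 library left out, of 39 to 46 members tested (33.2 to 56.9% of all tested genes). Without both shallow libraries they were 41 of 49 (53.7%). The 3 TE calls became 0 with at least 1 read (3.16% of all tested genes), 0 at an adjusted p under 0.05 (3.47%) and 0 with at least 10 counts in every library (28.5%). They became 5 with no replicate block (17.9%) and 5 without both shallow libraries (12.9%), and ran from 0 to 5 with 1 library left out (1.89 to 14.4%). In each setting with 5 calls, 2 of the 5 were lower. These were TOP2A and RFC1 without Pro 1 and without both shallow libraries, and TOP2A and DUT with no replicate block. DESeq2 gave none of the 38 members an adjusted p in the TE test. Same-numbered lysates of the 2 states did not deviate together (r from -0.20 to 0.21 in mRNA and 0.01 to 0.09 in RPF), so the numbers were not taken as pairs. The sign turned for RPA2 mRNA when RNA-seq was thinned (-0.060) and for ORC6 RPF with the replicate block (0.076). With 1 library left out, mRNA fold changes ran from -0.279 to 0.024 for TIPIN, turning without Pro 3, and from -0.154 to 0.040 for RFC5, turning without Sen 1, while ORC6 RPF ran from -1.409 to 0.002, turning without Sen 1. Single genes were followed here only for the members chosen for values in every library, 24 in mRNA and 18 of them in RPF. Their other values kept their sign, with 18 of 232 RPF and 6 of 331 mRNA values losing the call. These shares do not describe all members. Over all members tested in RPF, 12 of the 32 calls were lost without Sen 1 and 7 without Pro 3. Depth limited RPF, as 14 members had no footprint in Pro 1 and 21 had none in Sen 2.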
